A study of Gallus gallus with 12 samples.

Results

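NOTCH1, HES4 and HES5 were followed in otocysts in which Wnt signalling was blocked, to ask whether the Wnt block moves a receptor and target genes of the Notch pathway. The genes were chosen by name, as every transcript paired with NOTCH1, HES4 or HES5 in the differential expression tables that accompany the study. This gave 3 transcripts, 1 for each gene, of 28756 in each deposited table. They are ENSGALT00000003754.7 for NOTCH1 (9865 bases), ENSGALT00000085574.2 for HES4 (1758 bases) and ENSGALT00000001715.5 for HES5 (1421 bases). All 3 passed the filter on low counts in every comparison. In the RefSeq annotation of the assembly GRCg7b, which is a later build than the GRCg6a named for the files, NOTCH1 lies on chromosome 17 between EGFL7 and SEC16A, HES4 lies on chromosome 21 next to AGRN and PERM1, and HES5 lies on the same chromosome 21 next to PANK4. RefSeq also records HES1 among the older names of HES4, and the transcript named HES1 in the tables is a different one.

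Notch is a receptor at the cell surface that is cut when a Delta or Jagged ligand on a neighbouring cell binds it, and γ-secretase makes the last cut. The freed intracellular domain enters the nucleus, joins the DNA-binding protein RBPJ and switches on target genes, among them the bHLH repressors of the HES and HEY families. In the early ear, Notch signalling holds back neuroblast formation by lateral inhibition through DLL1 and maintains prosensory cells by lateral induction through Jagged ligands, while canonical Wnt signalling acts through β-catenin and LEF/TCF factors in the dorsal otocyst.

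The otocysts came from White Leghorn chicken embryos. The right otic placode or cup was electroporated in ovo at E2, and both otocysts were collected after 24 h, at embryonic day 3, and freed of surrounding mesenchyme. In 3 embryos (numbers 50, 51 and 52) the construct was the Bcat-LOF plasmid of the labels, a Tol2 vector that encodes mCherry and a truncated β-catenin (DNBCAT) acting as a dominant negative. In the other 3 embryos (numbers 60, 61 and 62) it was T2-mCherry alone. The left otocyst of each embryo was not transfected and was the control of the right. Transfection was mosaic, so a right otocyst held transfected and untransfected cells, and only strongly transfected ears were sequenced in the study. Each otocyst was sequenced as its own library, which gave 12 libraries. The measurement was made on whole otocysts, so fewer cells of a type and less RNA per cell cannot be told apart.

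The libraries held 13157404 to 16097100 estimated counts each (median 14801238). The right otocyst of embryo 51 stood apart, since 12.4% of its counts fell on its 10 most abundant transcripts, against 4.48% to 5.84% in the other otocysts, and it had the fewest transcripts with at least 1 count (20443). Of the otic epithelium markers SOHO-1, LMX1A, SOX10, DLX5, TBX2 and CDH1, all 6 were counted in every otocyst, and their summed level was between 708 and 1256 CPM, lowest in a right otocyst of the DNBCAT embryos. The periotic mesenchyme markers COL1A2, DCN, LUM, SCX, MMP2 and COL14A1 were also present, at a summed 435 to 743 CPM over 6 transcripts, with overlapping ranges in the 4 groups. Of 9 such markers listed, ENG, NT5E and THY1 could not be matched to the counts. The right-left log2 fold changes of the single markers with DNBCAT ran from -1.29 (COL14A1) to 0.27 (LUM). Of the neural tube markers, LHX5 was at 0 in every otocyst except those of embryo 50, at 0.20 CPM on the left and 0.07 CPM on the right. PRDM12 was counted in all 12 otocysts, at 21.3 to 64.7 CPM, so the neural tube markers differed widely in level.

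In the untransfected otocysts all 3 genes were expressed, and HES4 was the most abundant per length on average. Levels within a gene are given as CPM (library-scaled counts, after TMM normalization) and levels between genes as TPM, which is scaled for transcript length. HES4 was at 61.7 ± 8.59 TPM (SD, n = 6), HES5 at 45.5 ± 6.97 TPM and NOTCH1 at 36.6 ± 18.3 TPM. HES4 lay between 51.3 and 75.9 TPM and HES5 between 34.8 and 53.9 TPM, so that their ranges overlapped, but HES5 was below HES4 in each of the 6 left otocysts, at 0.618 to 0.968 of its TPM. The range of NOTCH1, 16.9 to 66.7 TPM, covered that of HES5 and most of that of HES4, so its place in this order did not exceed the spread between embryos.

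The NOTCH1 receptor varied most between embryos. Its level in the left otocysts was 181, 122 and 299.8 CPM in embryos 50, 51 and 52 and 390.0, 221 and 157 CPM in embryos 60, 61 and 62, a 3.20-fold range with a coefficient of variation of 43.7%. HES4, a repressor of the hairy type, was at 78.2, 75.8 and 56.7 CPM in the left otocysts of the DNBCAT embryos and at 61.3, 51.4 and 63.9 CPM in those of the mCherry embryos, a coefficient of variation of 16.4%. HES5, the HES gene most closely tied to Notch activity in neural and sensory progenitors, was at 40.1, 40.8 and 27.6 CPM and at 40.6, 39.1 and 35.4 CPM in the same order, with 13.8%. The left otocysts of the 2 sets of embryos overlapped for each gene, where 7.66% of all transcripts did not. Their log2 difference, DNBCAT minus mCherry embryos, was -0.36 (SE 0.43) for NOTCH1, 0.25 (SE 0.16) for HES4 and -0.10 (SE 0.18) for HES5, with an adjusted p of 0.9999 for each (edgeR's quasi-likelihood test, 0 of 19647 transcripts called, 0%, and 454 with an unadjusted p under 0.05, 2.31%). DESeq2 called 43 (0.219%), without the 3 genes. NOTCH1 was 0.08 without embryo 60, the embryo with the highest level.

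**Figure D1:**
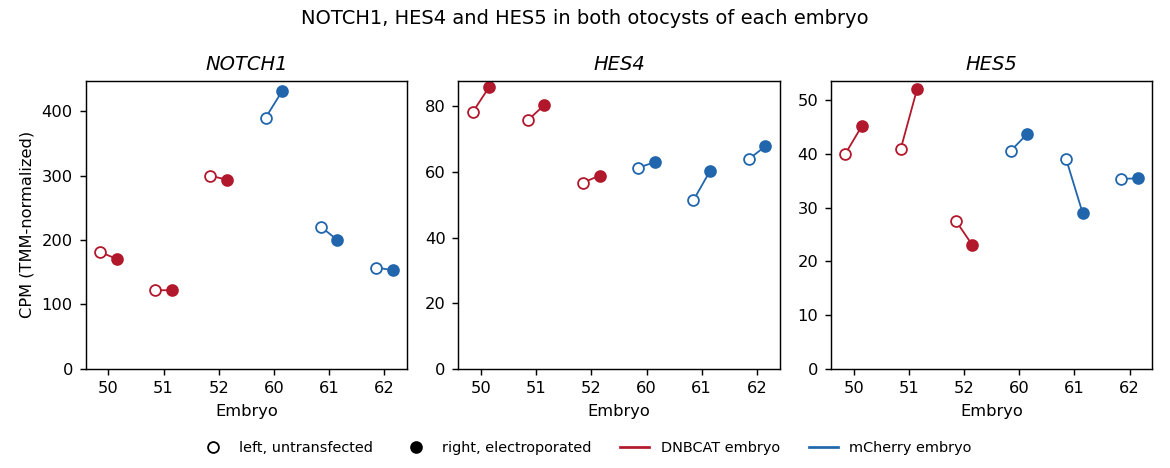
Level (CPM after TMM normalization, linear axes from 0) of NOTCH1, HES4 and HES5 in the left (open circles) and right (filled circles) otocyst of each of 6 embryos, with a line joining the otocysts of an embryo, red for DNBCAT and blue for mCherry. The NOTCH1 lines sit at different heights in different embryos and are flat or short next to those differences, HES4 is higher on the right in each embryo, and the HES5 lines go both ways.

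With the Wnt block, NOTCH1 was close to the level of the untransfected side of the same embryo. In the DNBCAT-transfected right otocysts it was at 171, 122 and 294 CPM in embryos 50, 51 and 52, against 181, 122 and 299.8 CPM on the left. The log2 right-left ratios were -0.08, 0.00094 and -0.03, and the right and left groups overlapped fully. The log2 fold change was -0.03 (SE 0.07, 95% interval -0.22 to 0.15, adjusted p = 0.896), from edgeR's quasi-likelihood model of paired otocysts, adjusted by Benjamini-Hochberg over 19408 transcripts. On the TPM scale NOTCH1 was at -0.30, below this interval, where the median of all transcripts was shifted by -0.23. Its TPM log2 ratios were -0.19, -0.73 and -0.05, lowest in embryo 51. After the median of each library was subtracted from the TPM values it was 0.0063. None of the 3 genes was called in this comparison, where edgeR called 0 of the 19408 transcripts (0%) at an adjusted p of 0.05 and the unadjusted p of 1204 (6.2%) was below this value.

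HES4 was slightly higher on the right in each of the 3 DNBCAT embryos. Its levels were 86.0, 80.5 and 58.9 CPM on the right against 78.2, 75.8 and 56.7 CPM on the left, that is log2 ratios of 0.14, 0.09 and 0.05. The groups overlapped, because embryo 52 was lower than the other embryos on both sides. The log2 fold change was 0.10 (SE 0.08, interval -0.11 to 0.30) at an adjusted p of 0.752 (edgeR), and 16.1% of all transcripts tested were higher on the right in all 3 of these embryos. On the TPM scale HES4 was at -0.19 and HES5 at -0.19 with DNBCAT, where the median of all transcripts was shifted by -0.23. The TPM log2 ratios of HES4 were 0.03, -0.66 and 0.05 in embryos 50, 51 and 52, negative only in embryo 51, whose right otocyst stood apart, and those of HES5 were 0.07, -0.40 and -0.26.

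HES5 was higher on the right in 2 DNBCAT embryos and lower in the other. It was at 45.2, 52.1 and 23.0 CPM on the right against 40.1, 40.8 and 27.6 CPM on the left. The log2 ratios were 0.18, 0.35 and -0.26, so the spread between embryos was larger than their mean. The log2 fold change was 0.10 (SE 0.15, interval -0.31 to 0.50) at an adjusted p of 0.859 (edgeR), and without embryo 51, which holds the otocyst that stood apart, it was -0.03.

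With DNBCAT the 95% intervals of the right-left difference ran from -14.0% to 10.9% for NOTCH1, -7.32% to 23.3% for HES4 and -19.1% to 41.6% for HES5. Over the 6 embryos of both constructs the counting SE of the log2 ratio was 0.03 to 0.05 for NOTCH1, 0.06 to 0.07 for HES4 and 0.08 to 0.10 for HES5. The 12 otocysts had between 1435 and 6658 estimated counts of NOTCH1, between 715 and 1278 of HES4 and between 348 and 675 of HES5. The estimates of NOTCH1 and HES5 were not whole in any otocyst, which means that some reads were shared with other transcripts, while those of HES4 were whole in 11 of 12 otocysts (within 0.001).

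After electroporation of mCherry alone the right-left ratios of each gene lay in overlapping ranges with those of DNBCAT. NOTCH1 was at 431, 199.9 and 153 CPM on the right against 390.0, 221 and 157 CPM on the left of embryos 60, 61 and 62, with log2 ratios of 0.15, -0.14 and -0.04 and a fitted log2 difference of -0.0054 (SE 0.07) at an adjusted p of 0.998 (edgeR). HES4 was at 63.0, 60.3 and 67.8 CPM against 61.3, 51.4 and 63.9 CPM, again higher on the right in all 3 embryos, with ratios of 0.04, 0.23 and 0.09. The fitted log2 difference was 0.12 (SE 0.06) at an adjusted p of 0.960 (edgeR), and 13.2% of all transcripts were higher on the right in all 3 mCherry embryos. HES5 was at 43.8, 29.0 and 35.4 CPM against 40.6, 39.1 and 35.4 CPM, lower on the right in embryo 61 only, with ratios of 0.11, -0.43 and 0.0014 and a fitted log2 difference of -0.10 (SE 0.13) at an adjusted p of 0.960 (edgeR). Right and left overlapped for each gene. Of 19754 transcripts tested in these embryos, 0 were called (0%), the unadjusted p of 740 (3.75%) was below 0.05, 13.5% were lower on the right in all 3 embryos and 5.16% did not overlap. DESeq2's Wald test called 456 transcripts (2.35%) with DNBCAT and 84 (0.425%) with mCherry, and none of NOTCH1, HES4 and HES5 was among them.

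The difference between the effects of DNBCAT and mCherry was tested over all 12 otocysts. It was -0.03 (SE 0.09, interval -0.25 to 0.19) for NOTCH1, -0.03 (SE 0.09, interval -0.23 to 0.18) for HES4 and 0.20 (SE 0.21, interval -0.31 to 0.72) for HES5 on the log2 scale. The adjusted p was 0.988, 0.988 and 0.941 (edgeR, 0 of 19298 transcripts called, 0%, and 842 with an unadjusted p under 0.05, 4.36%). DESeq2 called 64 (0.332%), without the 3 genes. The interval of each gene held values of either sign, and that of HES5 is the widest.

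Over both constructs, HES4 was higher in the right otocyst of 6 of 6 embryos, by 2.78% to 17.3%. In all, 705 of 19298 transcripts (3.65%) were higher on the right in all 6 embryos and 675 (3.5%) were lower. Over the 6 pairs the log2 fold change of HES4 was 0.11 (SE 0.04, interval 0.0081 to 0.20), with an unadjusted p of 0.0373 and an adjusted p of 0.538 (edgeR, 0 transcripts called, 0%, and 1779 with an unadjusted p under 0.05, 9.22%). In DESeq2's Wald test, which called 284 (1.47%), the adjusted p of HES4 was 0.109. The ratio of single embryos was below their counting SE in embryos 52 and 60 and above it in the other 4, and the right and left otocysts overlapped over the 6 embryos, where 0.171% of all transcripts did not. Without embryo 61, which had the largest ratio, the log2 fold change was 0.08 with an unadjusted p of 0.120 (edgeR). NOTCH1 was higher on the right in 2 of 6 embryos and HES5 in 4 of 6, with log2 fold changes of -0.02 (SE 0.04) and -0.0059 (SE 0.11). TPM values gave HES4 a log2 difference of -0.06 over the 6 pairs, where the median of all transcripts was shifted by -0.13, and in the 5 embryos other than 51 the TPM log2 ratio of HES4 was 0.02 to 0.19. After the median of each library was subtracted from the TPM values it was 0.13.

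A list of Wnt genes was measured in the same libraries for comparison, and these genes were lower on the DNBCAT side. The list holds genes of the Wnt pathway and genes named with them, among them BAMBI, MSX1 and MSX2. The paper proposes the transcription factor genes MSX1 and MSX2 as possible Wnt targets in the inner ear. WNT2B, a ligand of the dorsal otocyst, was at 20.0, 19.7 and 18.3 CPM on the right against 43.8, 45.6 and 46.96 CPM on the left of embryos 50, 51 and 52, without overlap, where 8.7% of all transcripts did not overlap in either direction. Its log2 fold change was -1.23 (SE 0.11, interval -1.52 to -0.94). AXIN2, a feedback inhibitor of the pathway, was at 19.0, 15.9 and 27.7 CPM against 35.5, 27.8 and 44.3 CPM, a log2 fold change of -0.79 (SE 0.11). The lower end of the interval was -0.22 for NOTCH1, -0.11 for HES4 and -0.31 for HES5, above the values of WNT2B and AXIN2, which are among the lowest of the list. NOTUM, a secreted Wnt inhibitor of the same list, had a log2 fold change of -0.18 (SE 0.21), which lies inside the intervals of NOTCH1 and HES5, and was higher on the right in embryo 50 (0.34). All 8 Wnt genes (AXIN2, WNT2B, SFRP1, MSX1, MSX2, BAMBI, APCDD1 and NOTUM) had negative log2 fold changes with DNBCAT, where 52.3% of all transcripts were negative, with a median of -0.73 against -0.02. Of these, 7 had an unadjusted p under 0.05, against 6.2% of all transcripts, and 0 an adjusted one (edgeR, smallest adjusted p of the 8 genes 0.718). In the mCherry embryos 7 of the 8 were negative, against 49.97% of all transcripts, with a median of -0.18. This list was drawn up with results of these libraries known, so its direction is not independent evidence.

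**Figure D2:**
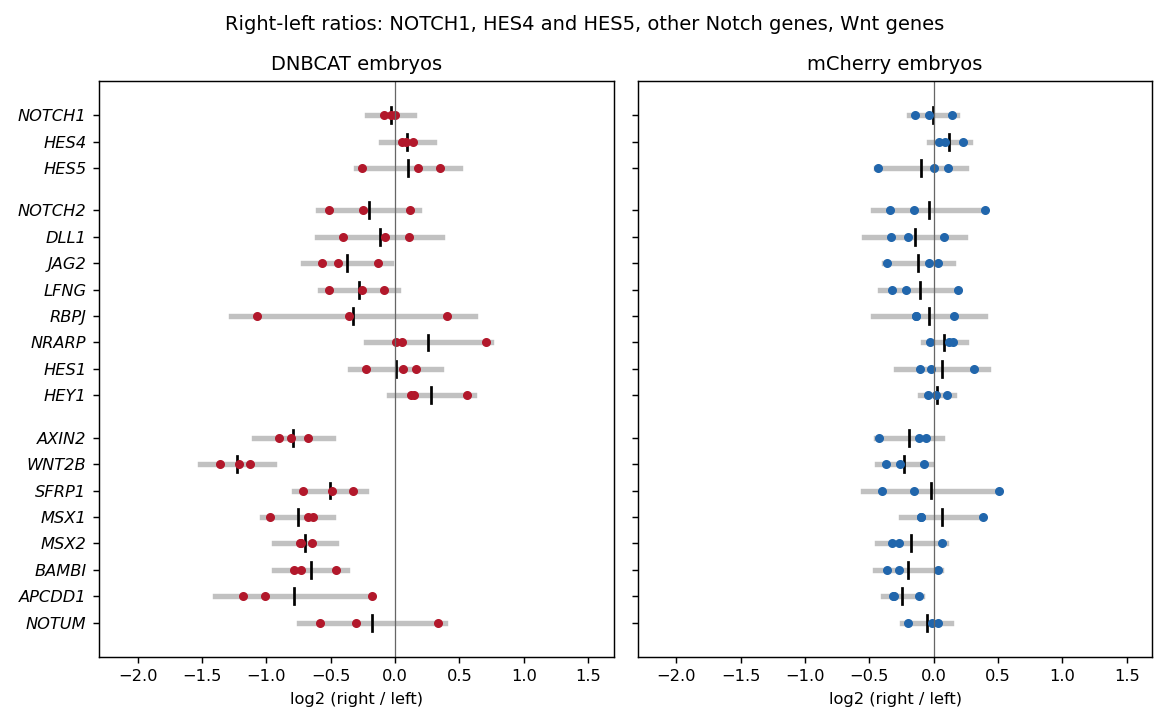
Right-left log2 ratio of each embryo (points), log2 fold change of edgeR (black tick) and its 95% interval (grey bar) for NOTCH1, HES4 and HES5 (top), 8 other Notch pathway genes (middle) and 8 Wnt genes (bottom), in the DNBCAT embryos (left panel) and the mCherry embryos (right panel). The intervals of NOTCH1, HES4 and HES5 span 0 in both panels, while those of 7 Wnt genes with DNBCAT lie below 0.

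The other genes of the Notch pathway were at different levels and did not move in a common direction. In the left otocysts the highest per length were HEY1, a target gene of the HEY family (132 ± 19.7 TPM, SD, n = 6), NRARP, a target that dampens Notch signalling (126 ± 18.1 TPM), and LFNG, a glycosyltransferase that modifies the receptor (108 ± 26.9 TPM), each above the HES4 mean. HES1 was at 43.7 ± 10.4 TPM, the ligand JAG2 at 19.5 ± 3.94 TPM, the receptor NOTCH2 at 16.8 ± 10.5 TPM, the ligand DLL1 at 7.42 ± 1.62 TPM and RBPJ at 5.35 ± 2.19 TPM. The TPM of NOTCH1 was 1.94 to 3.02 times that of NOTCH2 in the left otocysts and 1.83 to 3.01 times in the right ones, so the receptor ratio overlapped between the sides.

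With DNBCAT, 5 of these 8 genes had negative and 3 positive log2 fold changes, with a median of -0.16 against -0.02 over all transcripts, and 52.3% of all transcripts were negative. The 5 negative genes had transcripts of 2736 to 9622 bases and the 3 positive ones of 654 to 1035 bases, so the signs split along transcript length. Values of these genes, here and in the next paragraph, were not corrected along transcript length, and its part in them was not tested. None of the 8 genes had an adjusted p under 0.05 (edgeR), and 1, JAG2, had an unadjusted p under 0.05. JAG2 was at 31.5, 26.9 and 45.2 CPM on the right against 46.7, 36.6 and 49.5 CPM on the left, lower on the right in each embryo although the groups overlapped. Its log2 fold change was -0.37 (SE 0.13, unadjusted p = 0.0390, adjusted p = 0.718, edgeR), that in the mCherry embryos was -0.12 (SE 0.10), and their difference was -0.25 (SE 0.16, unadjusted p = 0.171, edgeR). LFNG was also lower on the right in each DNBCAT embryo, with 134, 94.5 and 165 CPM against 160, 135 and 174 CPM and in the fit a log2 difference of -0.28 (SE 0.11) at an adjusted p of 0.718 (edgeR). The lower-on-the-right pattern in all 3 embryos was shared by 17.2% of all transcripts.

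Among the target genes, HEY1 had a log2 fold change of 0.28 (SE 0.12), NRARP of 0.26 (SE 0.18) and HES1 of 0.0051 (SE 0.13) with DNBCAT. HEY1 was at 91.0, 93.2 and 67.4 CPM on the right against 61.7, 84.1 and 61.9 CPM on the left, and NRARP at 50.9, 40.4 and 38.5 CPM against 31.2, 40.1 and 37.0 CPM. Both were higher on the right in each embryo, as were 16.1% of all transcripts tested. In both, embryo 50 was far above the others (log2 ratios of 0.56 and 0.70), and in embryo 51 the log2 ratio of NRARP was only 0.0086. The receptor NOTCH2, the ligand DLL1 and RBPJ had log2 fold changes of -0.21 (SE 0.15), -0.12 (SE 0.18) and -0.33 (SE 0.35), and for each of them embryos went both ways. RBPJ was 0.03 without embryo 51. In the mCherry embryos the 8 genes had a median of -0.04, with 0 of 8 lower and 0 of 8 higher on the right in all 3 embryos. Of all transcripts tested in these embryos, 13.5% were lower and 13.2% higher on the right in all 3, so few of 8 genes would be so in any case.

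Broader sets were the study's lists of transcripts that changed when cultured otocysts of other embryos were treated with a γ-secretase inhibitor (GSI), which blocks the activation of Notch. Whether each of these transcripts depends on Notch was not tested. HES4 and HES5 are on both the 6 h and the 24 h list and NOTCH1 is on the 24 h list, and all 3 were left out here. NOTCH1 and HES5 are also on the study's list for cultured otocysts treated for 24 h with IWR1, a Wnt inhibitor, and HES4 is not. Those cultures were not analysed here. Of 103 tested transcripts that were lower after 6 h of GSI, 31 were lower on the DNBCAT side and 72 were higher (median 0.13 on the log2 scale). Of 183 that were higher after 6 h of GSI, 142 were lower on this side and 41 were higher (median -0.24). Both lists therefore lay opposite to the direction of the inhibitor on balance, against 52.3% of all transcripts lower and a median of -0.02. The mCherry embryos showed the same directions with smaller medians, 0.03 with 40 of 104 lower and -0.05 with 129 of 183 lower, where 49.97% of all transcripts were lower. No transcript of these lists had an adjusted p under 0.05 (edgeR). The counts and medians of the GSI lists, here and below, were not corrected along transcript length. Without embryo 51 the counts lower with DNBCAT were 27 of 102 and 137 of 183. The lists share genes with the Notch, Wnt, neuroblast and HLH lists used here. HES1, HEY1, MSX2, ID1, ID2 and ID3 are on the list lowered at 6 h. DLL1, JAG2, RBPJ, NEUROD1, PROX1, SIM1, TCF12 and TCF3 are on the list raised at 6 h. NOTCH2 is on the list lowered at 24 h, and EBF3 and TCF12 are on the list raised at 24 h.

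The 24 h lists were near balance with DNBCAT. Of 125 transcripts lower after 24 h of GSI, 60 were lower and 65 higher on the DNBCAT side (median 0.02), and of 128 that were higher after 24 h, 64 were lower and 64 higher (median 0.00046). Of the 9 transcripts lowered at both times, 7 were higher and 2 lower with DNBCAT, with a median of 0.14. Of all 19408 transcripts tested with DNBCAT, 10141 were lower. Among the 9 transcripts ENSGALT00000035200.5, which has no name in the tables, had log2 ratios of 0.53, 0.47 and -0.0016 and a fitted log2 difference of 0.34 (SE 0.13) at an adjusted p of 0.718 (edgeR). The other unnamed transcripts of this list, ENSGALT00000042752.3 and ENSGALT00000043343.3, were at 0.29 (SE 0.17) and -0.22 (SE 0.18). With mCherry alone the 9 transcripts went both ways, with log2 fold changes from -0.07 (ENSGALT00000035200.5) to 0.54 (ENSGALT00000043343.3). The paper counts several HES5 genes among those lowered at both times. Whether the unnamed transcripts include any of them was not tested.

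**Figure D3:**
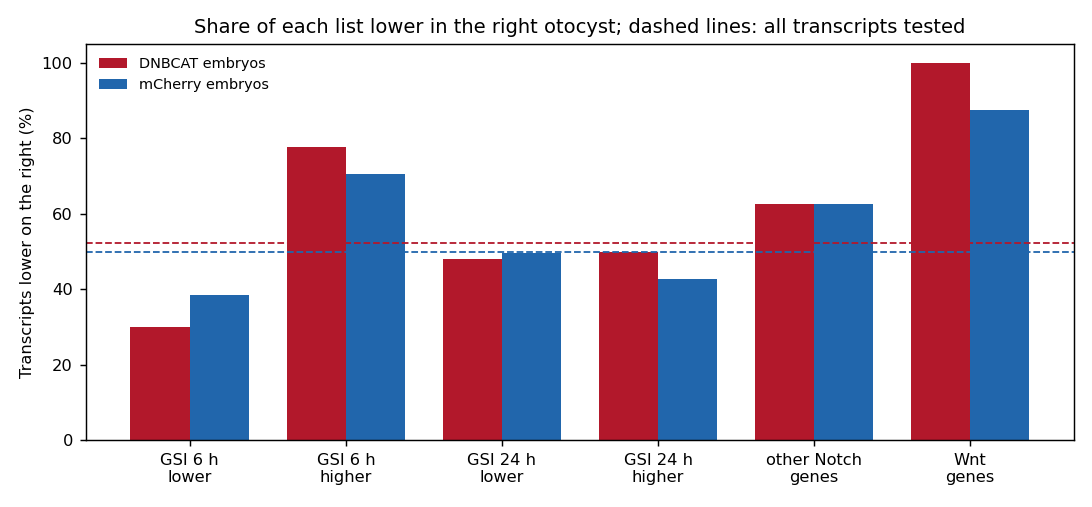
Percentage of tested transcripts with a negative right-left log2 fold change (bars from 0; red for DNBCAT, blue for mCherry) in the lists lowered or raised by GSI at 6 h and 24 h, among the 8 other Notch genes and among the 8 Wnt genes, with dashed lines for all transcripts tested. The list raised by GSI at 6 h reached 77.6% with DNBCAT and 70.5% with mCherry, the list lowered at 6 h 30.1% and 38.5%, and the 24 h lists lay between 42.6% and 50.0%.

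Neuroblast genes, which Notch activity restrains, were measured because they bear on the same pathway. Of 7 transcripts of NEUROD1, NHLH1, EBF2, EBF3, PROX1 and RET, 6 had negative log2 fold changes with DNBCAT (median -0.36) and 5 with mCherry (median -0.16). Of all transcripts tested, 10141 of 19408 were negative with DNBCAT and 9872 of 19754 with mCherry. The neuroblast list, too, was chosen with earlier results known, so its direction is not independent evidence. NEUROD1, a neuroblast transcription factor, had a log2 fold change of -0.48 (SE 0.10) and the receptor RET of -1.26 (SE 0.14), both lower in each of the 3 embryos and both with an adjusted p of 0.718 (edgeR). Of all transcripts tested, 17.2% were lower on the right in all 3 DNBCAT embryos. With mCherry alone the log2 fold change was -0.25 (SE 0.11) for NEUROD1 and 0.04 (SE 0.17) for RET. The DNBCAT effect minus the mCherry effect was -0.23 (SE 0.16) for NEUROD1 and -1.29 (SE 0.24) for RET, each at an adjusted p of 0.935 (edgeR). Without embryo 51, 5 of the 7 were negative with DNBCAT, and in embryo 52 NHLH1, EBF2 and the EBF3 transcript of 2432 bases were higher on the right (0.55, 0.40 and 0.45). The summed level of the 7 transcripts was 263 to 307 CPM on the DNBCAT side against 329 to 365 CPM on the left of the same embryos. These ranges did not overlap, but without RET, a choice made after seeing the data, they did, at 228 to 278 CPM against 268 to 286 CPM. The ranges of the mCherry embryos overlapped (325 to 407 and 398 to 404 CPM). The untransfected left otocysts of the DNBCAT and mCherry embryos did not overlap in this sum either, at 329 to 365 CPM against 398 to 404 CPM. Without RET they were at 268 to 286 CPM against 314 to 319 CPM. Of single transcripts, 8.7% did not overlap between the sides of the DNBCAT embryos. The part of these cells in the values of HES4, HES5 and the GSI lists was not tested. Among other bHLH and HLH factors, ID1 was higher on the right in 6 of 6 embryos, as HES4 was. Its log2 fold change over the 6 pairs was 0.15 (unadjusted p = 0.0044, adjusted p = 0.538, edgeR). TCF12 went the opposite way in 6 of 6 embryos, at -0.17 over the 6 pairs (unadjusted p = 0.0455, adjusted p = 0.538, edgeR). For ID2, ID3, TCF3 and SIM1 the sign differed between embryos. Of all transcripts, 3.65% were higher on the right in all 6 embryos and 3.5% were lower.

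The differences of NOTCH1 between embryos went along with those of other long transcripts. The median log2 deviation of the 127 transcripts of 8 to 12 kb from their mean over the 12 otocysts was between -0.27, in the left otocyst of embryo 51, and 0.51, in the left otocyst of embryo 60. NOTCH1 deviated by -0.78 and 0.90 in these same otocysts, and over the 12 otocysts its deviation and that of the long transcripts had a Pearson correlation of 0.974, where the 2 otocysts of an embryo are not independent. The 4595 transcripts of 1 to 2 kb, the class of HES4 and HES5, varied less, from -0.10 to 0.22, with the highest value in the right otocyst of embryo 51. When the counts were corrected along transcript length, the coefficient of variation of NOTCH1 over the left otocysts was 21.4% in place of 43.7%, and its range was 153 to 269.98 CPM. The corrected log2 fold changes with DNBCAT were 0.02 for NOTCH1, 0.08 for HES4 and 0.04 for HES5, and none was called. HES4 remained higher on the right in 6 of 6 embryos after this correction, which was chosen after the data were seen.

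**Figure D4:**
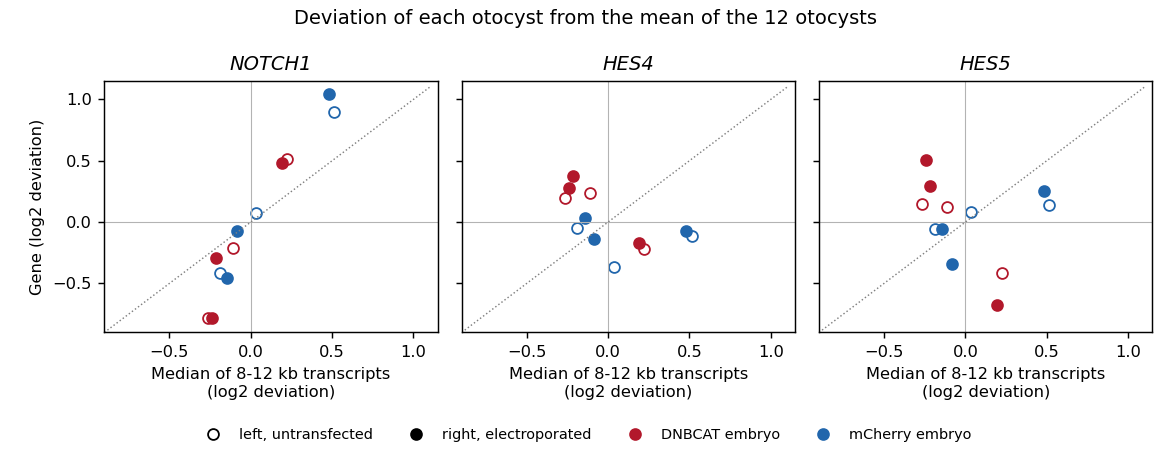
Log2 deviation of NOTCH1, HES4 and HES5 in each otocyst from their mean over the 12 otocysts (vertical axis), against the median log2 deviation of 127 transcripts of 8 to 12 kb in the same otocyst (horizontal axis), open circles for left and filled circles for right otocysts, red for DNBCAT and blue for mCherry embryos, with a dotted line where both are equal. NOTCH1 follows the long transcripts and goes further than they do, from -0.78 to 1.04, while HES4 and HES5 do not lie along the line.

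The named transcripts most like each gene were found by the Pearson correlation of log2(CPM + 1) over the 12 otocysts, among 792 named transcripts, as a description. For NOTCH1 they were LRP4 (0.973), PTPRF (0.969), LAMA1 (0.967), NOTCH2 (0.965) and FBN3 (0.964), with lengths of 6945 to 9622 bases against a median of 2223 bases for all transcripts tested. For HES4 they were NFKBIA (0.841), VEGFD (0.838), HSPB9 (0.829), USP45 (0.808) and ID1 (0.793), and for HES5 they were CDC37L1 (0.821), ARSB (0.815), AGR3 (0.806), TMEM171 (0.793) and PRRC2C (0.791). The correlation of HES4 with HES5 was 0.602, that of NOTCH1 with HES4 was -0.60 and that of NOTCH1 with HES5 was -0.31.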

How the data were processed

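The authors prepared libraries with the SMART-Seq v4 and Nextera XT kits, sequenced paired ends on an Illumina NextSeq and quantified them with Kallisto. Per the labels the build was GRCg6a, and no Kallisto version is given in the sources used here. The deposited estimated counts carry no normalization and can be fractional, because reads matching several transcripts are shared. The deposited TPM values are scaled by the authors' software to transcript length and a fixed total, so abundant transcripts lower all others.

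Counts were rounded and tested with edgeR 4.0.16 (R 4.3.3): TMM normalization, quasi-likelihood test, embryo as block, Benjamini-Hochberg adjustment over all transcripts that reached 5 counts in 47% or more of the otocysts in a comparison. The standard error is the log2 fold change divided by the square root of F. Otocysts with the same number are the 2 ears of 1 embryo, and their deviations from the group means correlated at 0.154 to 0.485. Alternatives used DESeq2 1.42.0, limma 3.58.1 on log2(TPM + 1) or log2(TPM + 0.1), other filters, no block, all libraries in 1 fit, and left-out embryos. The length correction (lowess, span 0.3, on transcripts with at least 10 counts everywhere) and the centred TPM were added after the data were seen. Tables and figures used Python 3.11.15, pandas 2.3.3 and matplotlib 3.10.9. Scripts were tested on simulated data.

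The genes and lists were chosen with earlier results of these data known. The text names NOTCH1, HES4 and HES5, fixed lists of Notch, Wnt, neuroblast and HLH genes, the GSI lists as counts, and the 5 named transcripts most like each gene. Symbols come from the study's tables and pair 1 transcript with each gene. Reads of other isoforms, or of the further HES5 genes that the paper names, are therefore not included. Libraries have no molecular identifiers, so counting errors cover counting only. Transfected sides follow the labels, and reads of the constructs were not analysed here.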

Additional observations from a re-analysis of the deposited data

Results flagged for a closer look

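In 3 of 35 groups of 6 otocysts or embryos examined, the highest or lowest value lay far from the others, where chance gives about 1 in 20. For NRARP the gap of embryo 50, at a log2 right-left ratio of 0.70, to the nearest other embryo was 0.762 of the whole range. For HEY1 the same embryo, at 0.56, gave 0.676. For the EBF3 transcript of 2432 bases the gap of embryo 52, at 0.45, was 0.633 of the range. None of NOTCH1, HES4 and HES5 had such a value.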

How the results depend on the processing

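None of NOTCH1, HES4 and HES5 was called under any alternative, and 179 of 210 of their log2 fold changes kept their sign. The 31 that reversed lay near 0, followed the TPM shift or came with 1 embryo left out, and their cause was not tested. DESeq2's Wald test called 456 transcripts with DNBCAT, 84 with mCherry, 64 for their difference, 284 over 6 pairs and 43 between left otocysts, in place of 0 each. The filter of 10 counts gave 1 with DNBCAT. Limma gave 1 for the difference on log2(TPM + 1), 1 on log2(TPM + 0.1) and 1 on centred TPM, and between left otocysts 1, 22 and 2.

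NOTCH1 turned to 0.025 (length) and 0.0063 (centred TPM) with DNBCAT, to 0.000049 (DESeq2 size factors), 0.00047 (DESeq2), 0.049 (length) and 0.0079 (centred) with mCherry, and to 0.032 and 0.0096 (length, centred) over 6 pairs. HES4 turned to -0.19 and -0.19 (TPM, either pseudocount) with DNBCAT and to -0.056 and -0.057 over 6 pairs. HES5 turned to -0.19 and -0.20 with DNBCAT, to -0.048 and -0.050 for the difference, and over 6 pairs to 0.0078 (DESeq2 size factors), 0.0085 (DESeq2) and 0.017 (centred). With length correction the coefficient of variation of NOTCH1 was 21.4%.

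With 1 embryo left out, NOTCH1 lay between -0.085 and 0.057 with mCherry, -0.094 and 0.053 for the difference, and -0.76 and 0.080 between left otocysts. HES4 lay between -0.065 and 0.029 for the difference. HES5 lay between -0.032 and 0.26 with DNBCAT, -0.21 and 0.054 with mCherry, -0.073 and 0.078 over 6 pairs, and -0.20 and 0.067 between left otocysts.

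Without the embryo as a replicate block, NOTCH1 was 0.034 with mCherry and HES5 0.030 over 6 pairs. The unblocked fit called 0 transcripts with DNBCAT and changed no call, and 470 had an unadjusted p under 0.05 in place of 1204.

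Among other genes with DNBCAT, the range with 1 embryo left out was -0.72 to 0.026 for RBPJ (the latter without embryo 51), -0.24 to 0.011 for DLL1 and -0.080 to 0.11 for HES1. On TPM, NRARP was -0.033 and -0.034, HEY1 -0.0091 and -0.0094, and HES1 -0.28 and -0.29. HES1 was -0.0068 with the stricter filter and -0.11 with length correction. The genes compared in this way were JAG2, LFNG, RBPJ, NOTCH2, DLL1, NRARP, HEY1, HES1, AXIN2, WNT2B, SFRP1, NEUROD1 and RET. Of these, DESeq2 called AXIN2, WNT2B, SFRP1, NEUROD1 and RET with DNBCAT. The other listed genes, among them MSX1, MSX2 and BAMBI, were not compared in this way.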
